A study of Mus musculus with 3 samples.

Results

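The genes described here are the 39 mouse Hox genes, the homeobox genes of the clusters HoxA, HoxB, HoxC and HoxD. They were taken from the feature lists of 3 single-cell libraries by name alone, as every symbol made of Hox, a cluster letter and a number, with antisense and opposite-strand genes left out. They are 39 of the 32943 gene identifiers that any of the lists held. The mixed library listed them in 40 rows, because Hoxd4 had 2 identifiers there, and the other libraries in 39. The study isolated neurons of the small ganglia on the heart from the atria of adult mice and sequenced them one by one with 10x Chromium 3′ chemistry. One library held ganglia of both atrial regions pooled ("mixed"), and the others held only the anterior or only the posterior region. All mice carried Baf53b-cre and lox-GFP and were of both sexes, and labelled ages were 2, 3 and 4 months, in the order mixed, anterior, posterior. Green cells were sorted, a sort meant for neurons through their history of Baf53b (Actl6b) promoter activity. Non-neuronal cells in the libraries passed it as well, and this history was not measured for any cell here. The label of the first library names the atria with no section, and it was taken as the mixed preparation that the protocol describes. The protocol names 10 mice, and no label ties a cell to a mouse. Wherever 3 values stand together below, they are in the order mixed, anterior, posterior.

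Hox genes encode transcription factors with a DNA-binding homeodomain. Each cluster lies on its own chromosome, and genes at matching positions form a numbered paralogue group. In embryos low-numbered groups are used from the hindbrain backwards and high-numbered groups towards the tail, and adult cells often keep part of the set their precursors used. Cardiac ganglia arise largely from neural crest of the caudal hindbrain level. Hox proteins bind DNA with TALE cofactors (Pbx, Meis and Pknox proteins), and retinoic acid is a textbook inducer of low-numbered Hox genes through receptors whose half-site is AGGTCA.

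Promoters of paralogue group 4 are shown because this group gave the most neuron UMIs, and because its members Hoxb4 and Hoxc4 lay on opposite sides of the comparison between neurons and glia. RefSeq's promoter table (GRCm38.p6) held 22 of the 39 genes, in 24 promoters of 300 bases from 250 before to 50 after the start. Its group 4 entries are Hoxb4 at chr11:96318017-96318316, Hoxc4 at chr15:103034145-103034444 and Hoxd4 at chr2:74721728-74722027, all on the plus strand. Capitals mark the half-site, which lies on the minus strand in each and so reads TGACCT.
Hoxb4: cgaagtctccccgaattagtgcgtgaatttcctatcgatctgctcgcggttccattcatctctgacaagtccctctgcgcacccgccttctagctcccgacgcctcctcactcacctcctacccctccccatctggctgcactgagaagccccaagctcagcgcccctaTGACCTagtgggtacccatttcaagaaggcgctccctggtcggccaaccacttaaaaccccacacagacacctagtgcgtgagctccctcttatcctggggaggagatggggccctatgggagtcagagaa
Hoxc4: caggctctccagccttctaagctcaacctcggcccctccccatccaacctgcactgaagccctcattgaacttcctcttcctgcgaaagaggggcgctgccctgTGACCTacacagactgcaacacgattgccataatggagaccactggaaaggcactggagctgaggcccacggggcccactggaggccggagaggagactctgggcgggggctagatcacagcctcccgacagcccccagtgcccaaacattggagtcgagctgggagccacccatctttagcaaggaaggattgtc
Hoxd4: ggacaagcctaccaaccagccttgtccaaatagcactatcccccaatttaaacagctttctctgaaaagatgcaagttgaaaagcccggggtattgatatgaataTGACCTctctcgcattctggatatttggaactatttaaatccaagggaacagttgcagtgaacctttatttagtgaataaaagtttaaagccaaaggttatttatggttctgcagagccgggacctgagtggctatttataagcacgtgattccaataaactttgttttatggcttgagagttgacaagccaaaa
Each of these windows held 1 match. On either strand 7 of the 24 Hox promoters held at least 1, against 16.3% of all 32851 promoters of the same length. The PBX-HOX site TGATNNAT was in 4 Hox promoters (8.85% of all) and the HOX core TAATTA in 2 (5.29% of all), and neither was in the printed windows. A match describes letters, and no binding was measured.

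Levels are unique molecular identifiers (UMIs, each counting 1 captured RNA molecule once) per 10000 UMIs of a class of cells, summed within a library. Neurons were barcodes with at least 10000 UMIs and with Snap25, Prph and Stmn2 detected: 1971, 1314 and 1443 cells. Chat, the enzyme of acetylcholine synthesis, was at 0.375, 0.330 and 0.431 in them. Glia (86, 156 and 150 cells), fibroblasts (112, 86 and 151) and macrophages (27, 16 and 47) were gated on marker lists. The mixed library stands apart: it was made with an older feature list, and its neurons carried more glial RNA (summed glia markers 4.44, 2.37 and 2.16). The libraries shared 2 to 3 cell barcodes pair by pair. Hox clusters hold antisense genes, and the strand setting of the authors' counting is not given in the sources used here.

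Neurons of all 3 libraries used the low-numbered Hox genes. Summed over the 39 genes, Hox RNA was at 0.756, 0.998 and 0.909 per 10000. Groups 1 to 5 held 98.0%, 98.2% and 98.1% of these UMIs, and group 4 alone 51.3%, 57.0% and 58.7%. Groups 9 to 13 together gave 43 UMIs in all neurons, 38 of Hoxd9 and 5 of Hoxb9. By cluster, HoxB held 36.8%, 29.5% and 28.1%, HoxC 51.6%, 32.8% and 33.8%, HoxD 7.46%, 32.7% and 35.0% and HoxA 4.14%, 5.02% and 3.07% of Hox UMIs. The shares of the mixed library thus differed mainly in HoxC and HoxD. Mixed neurons had 4 Hoxd4 UMIs, against 1049 and 1624, so their other shares, HoxC included, are taken of a total almost without Hoxd4.

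**Figure D1:**
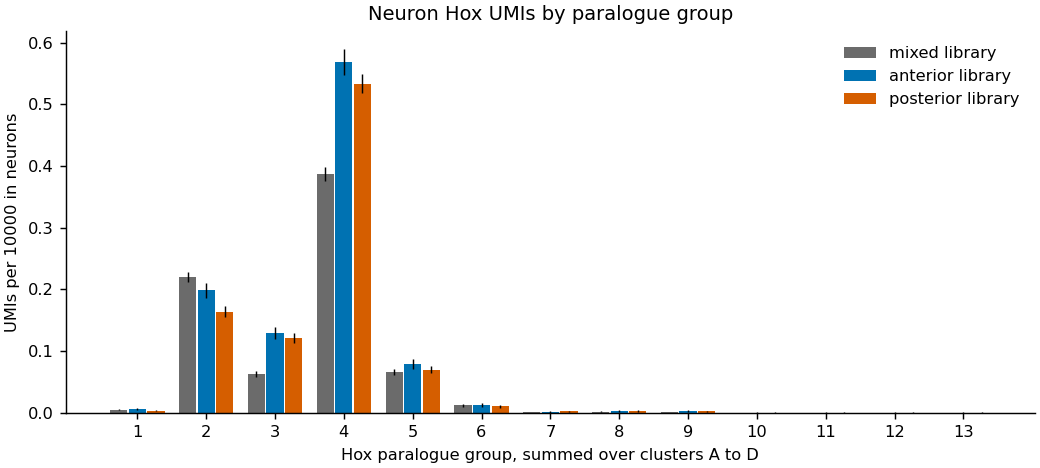
UMIs per 10000 in neurons for each Hox paralogue group, summed over the 4 clusters, by library, with exact 95% Poisson intervals that cover counting error only. Group 4 is highest in each library (0.387, 0.568 and 0.534), and groups 10 to 13 have no UMI.

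Of the 39 genes, 16 had no UMI in neurons of any library: Hoxa6, Hoxa9, Hoxa10, Hoxa11, Hoxa13, Hoxb13, Hoxc8 to Hoxc13 and Hoxd10 to Hoxd13. A further 11 had 3 to 47 UMIs over the 3 libraries, namely Hoxa2, Hoxa3, Hoxa7, Hoxb1, Hoxb6, Hoxb7, Hoxb8, Hoxb9, Hoxd1, Hoxd8 and Hoxd9. The other 12 had 61 or more. Only 2 genes, Hoxc4 and Hoxb2, reached 0.1 per 10000 in every library, and without the mixed library 4 did, with Hoxd3 and Hoxd4 added. Thinned to 10000 UMIs each, 51.4%, 61.6% and 56.0% of neurons held a Hox UMI, against 95.3%, 93.1% and 93.1% unthinned. The highest paralogue group in a thinned neuron was 4 in 30.2%, 37.8% and 36.8% of neurons, 5 in 4.57%, 6.24% and 4.99% and 6 in 1.17%, 1.07% and 0.624%.

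Hoxc4 (chr15:103018934-103036852, GRCm38, plus strand) was the highest Hox gene in neurons, at 0.350, 0.289 and 0.278. Hoxb2 (chr11:96350525-96354012), which takes part in motor neuron specification in the hindbrain, was at 0.219, 0.197 and 0.163. Hoxc4 was above Hoxb2 in each library. A 3′ library counts a molecule once whatever its length, so levels were not divided by length, and capture can still differ between genes.

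Hoxd3 and Hoxd4, neighbours in the HoxD cluster, separated the libraries. Hoxd4 had 4, 1049 and 1624 neuron UMIs, so it was at 0.202 and 0.202 in the last 2 libraries, level with Hoxb2 or above it. Hoxd3 was at 0.0519, 0.118 and 0.110. The 2 Hoxd4 identifiers of the mixed list held 0 and 4 UMIs, and the second is not in the other lists. In GENCODE vM21, 62.3% of the exon bases of Hoxd3 and 52.3% of those of Hoxd4 are shared with each other or with Gm28230 on the same strand. Of the last 500 exon bases, which a 3′ library reads most, 0% of Hoxd3 and 4.4% of Hoxd4 are shared. The part of this overlap in the gap was not tested.

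Other neuron Hox genes were lower. Hoxb5 was at 0.0334, 0.0488 and 0.0435 and Hoxa4 at 0.0227, 0.0401 and 0.0202. Hoxb4 was at 0.0147, 0.0368 and 0.0342 and Hoxc5 at 0.0301, 0.0262 and 0.0229. Hoxb5 was the highest of these 4 in each library, and Hoxa4, Hoxb4 and Hoxc5 changed places between libraries. Hoxc6 was at 0.0106, 0.0120 and 0.00708 and Hoxb3 at 0.00861, 0.00925 and 0.00969.

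Glia carried mainly HoxB genes, with Hoxb4 (chr11:96318267-96321638) the highest in the anterior and posterior libraries and Hoxb2 slightly above it in the mixed one. Glial Hoxb4 was at 0.312, 2.71 and 1.49 per 10000, from 10, 120 and 102 UMIs in 8, 70 and 56 cells. Every glial value was above every neuron value of Hoxb4. The share of glia with a Hoxb4 UMI was 9.30%, 44.9% and 37.3%. Among macrophages, which were deeper at a median of 5057, 4959 and 6602 UMIs against 3126.5, 2229 and 3801.5, it was 0 of 27, 1 of 16 and 0 of 47 cells, and the zeros allow up to 11.1% and 6.38%. Thinned to 2000 UMIs, Hoxb4 was found in 7.69%, 38.4% and 20.5% of glia and in 0.203%, 0.761% and 0.832% of neurons, with 21, 70 and 33 shallower glia left out. HoxB genes made up 86.7%, 92.1% and 90.6% of glial Hox UMIs.

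Hoxb4 was lower in neurons than in glia, and Hoxc4 was higher. The edgeR quasi-likelihood test over the 3 libraries, with library as a block, gave Hoxb4 a log2 fold change of -5.43 ± 0.36 SE (adjusted p = 3.4e-08). Hoxc4 gave 4.01 ± 0.58 (adjusted p = 4.3e-05), from 0, 1 and 2 glial UMIs. Hoxb2, at 0.343, 0.203 and 0.131 in glia, gave 0.06 ± 0.35 (adjusted p = 0.89), with a sign that depended on the scaling. Only these 3 Hox genes passed the count filter, and 2 of them passed the test, 1 in each direction, where 67% of 9150 genes did (34.5% higher and 32.5% lower in neurons). The filter was shared by all comparisons of neurons, glia and fibroblasts. Hoxb4 passed it through its glial level and Hoxc4 through its neuron level. Their count and directions were thus partly set by the filter and are no result about Hox genes as a group.

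Both calls held without each library in turn, at -5.72 to -4.89 for Hoxb4 and 3.5 to 4.83 for Hoxc4. Without the neurons carrying at least 5 glia marker UMIs per 10000, Hoxb4 gave -6.46 (adjusted p = 3.9e-07) and Hoxc4 3.98 (adjusted p = 9e-05). Without the count filter 7 Hox genes passed (of all genes, 37.4%): Hoxa3, Hoxb3 and Hoxb4 lower, and Hoxb5, Hoxc4, Hoxd3 and Hoxd4 higher in neurons. DESeq2 called 5 (of all genes, 43.5%), namely Hoxa2, Hoxa3, Hoxb3, Hoxb4 and Hoxc4. Hoxb3 had 4, 8 and 14 glial UMIs, at 0.125, 0.181 and 0.204, all above its neuron levels. Hoxd3 had no glial UMI, and against a floor of 3 UMIs per library its neuron level was at least 1.74-fold higher in the anterior and at least 2.51-fold higher in the posterior library.

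**Figure D2:**
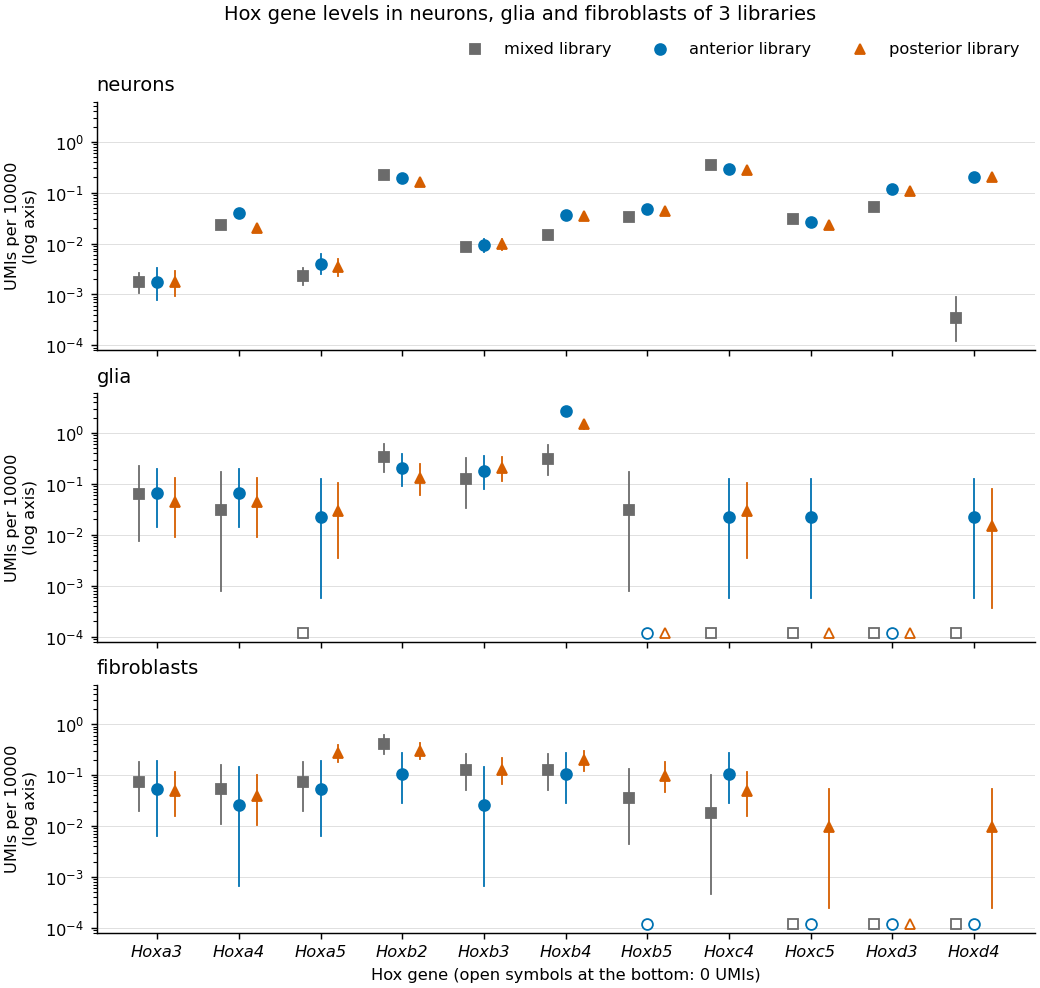
UMIs per 10000 (log axis) of Hox genes in neurons, glia and fibroblasts, 1 symbol per library with its exact 95% Poisson interval, and open symbols at the bottom for 0 UMIs. Glial Hoxb4 reaches 2.71 in the anterior library, and Hoxd3 has no UMI in glia or fibroblasts.

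Glial Hoxb4 also differed between libraries. The mixed value had a 95% Poisson interval of 0.15 to 0.574, below the anterior (2.25 to 3.24) and posterior intervals (1.21 to 1.81). Egr2, a hindbrain segment and Schwann cell factor, went the same way in glia, at 0.250, 2.15 and 2.22. Summed fibroblast markers in these glia were 18.0, 7.01 and 6.79, and their part in the gap was not tested. With 1 library per region, the region, age, feature list and preparation cannot be told apart, and the libraries were compared without a test.

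Fibroblasts held 58, 22 and 128 Hox UMIs, mostly of HoxA and HoxB. Their summed mural cell markers were 81.5, 20.3 and 13.5, highest in the mixed library, and the part of mural cells in the levels was not tested. Hoxb2 was at 0.415, 0.105 and 0.302, Hoxb3 at 0.126, 0.0262 and 0.127 and Hoxb4 at 0.126, 0.105 and 0.195. Hoxa5, a regulator of lung development, was at 0.0721, 0.0525 and 0.273, highest in the posterior library with 28 UMIs. Beyond these genes, no Hox gene had more than 10 UMIs in the fibroblasts of a library (Hoxb5, posterior), and none but Hoxb2, Hoxb3 and Hoxb4 more than 3 in the glia of one. Hoxa3 had 4, 2 and 5 UMIs in fibroblasts and 2, 3 and 3 in glia. Hoxa10 had 1 UMI in mixed fibroblasts, and Hoxb9 2 in anterior glia.

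Against fibroblasts, neurons had less Hoxb4 (-2.46 ± 0.50, adjusted p = 0.00068) and more Hoxc4 (2.52 ± 0.43, adjusted p = 0.00018). Hoxb2 gave -0.60 ± 0.30, adjusted p = 0.092, and passed without the anterior library, at -0.84 (adjusted p = 0.04). Here 2 of the same 3 Hox genes passed, 1 in each direction, where 66.5% of genes did (34.5% higher, 32.1% lower). The limit set by the shared filter holds here too. Without the count filter 9 passed (39% of genes), with Hoxa2, Hoxa3, Hoxa5, Hoxa7 and Hoxb3 joining Hoxb4, and Hoxd3 and Hoxd4 joining Hoxc4. DESeq2 called 7 (44.9% of genes). Between glia and fibroblasts, glia had more Hoxb4 (2.97 ± 0.42, adjusted p = 0.00011), the 1 call among 3 tested, where 34.2% of genes passed (16.3% higher, 17.9% lower in glia). DESeq2 called 2 (23.4%) and the unfiltered fit 3 (17.4%), in both with Hoxa5 lower in glia.

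Neurons were divided by Npy, which encodes the cotransmitter neuropeptide Y, and by Ddah1, an enzyme that breaks down methylarginine inhibitors of nitric oxide synthesis. Npy-low neurons (under 4 Npy UMIs per 10000) numbered 348, 123 and 510, with 35, 26 and 84 neurons between 2 and 8. Ddah1-high neurons (at least 1) numbered 417, 167 and 557, with 163, 176 and 280 between 0.5 and 2. Since 332, 104 and 436 neurons were in both classes, the splits are not independent.

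Hoxa4, Hoxc4, Hoxc5, Hoxd3 and Hoxd4 were lower in Npy-low neurons, and Hoxb4 was higher. Hoxc4 was at 0.179, 0.178 and 0.178 in Npy-low and at 0.386, 0.301 and 0.328 in Npy-high neurons, with no overlap (-0.98 ± 0.08, adjusted p = 1.2e-05). Hoxd3 was at 0.0277, 0.0656 and 0.0637 against 0.0571, 0.123 and 0.133, lower within each library (-1.06 ± 0.10, adjusted p = 4.4e-05). Hoxa4 was at 0.0104, 0.0185 and 0.00925 against 0.0253, 0.0423 and 0.0258, with no overlap (-1.37 ± 0.21, adjusted p = 0.00085). Hoxc4, Hoxd3 and Hoxa4 kept their calls without each library in turn.

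Hoxc5 was at 0.00890, 0.0123 and 0.0167 against 0.0346, 0.0277 and 0.0260, with no overlap (-1.25 ± 0.28, adjusted p = 0.0084), and without the mixed library it gave -0.83 (adjusted p = 0.09). Hoxd4, readable only in the anterior and posterior libraries, was at 0.156 and 0.172 against 0.207 and 0.216 (-0.37 ± 0.10, adjusted p = 0.027), and without either of them it did not pass, at -0.40 (adjusted p = 0.12) and -0.45 (adjusted p = 0.18). Hoxb4 moved the other way, at 0.0341, 0.0636 and 0.0522 against 0.0106, 0.0340 and 0.0250. It was higher within each library (1.19 ± 0.19, adjusted p = 0.0013), and at 0.96 to 1.29 without each in turn. Hoxb2 gave -0.04 ± 0.07, adjusted p = 0.84.

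In all, 6 of 10 tested Hox genes passed, where 26.5% of 13885 genes did. The 5 lower stand beside 13.9% of genes lower and the 1 higher beside 12.5% higher, and the median Hox log2 fold change was -0.68 against -0.00 for all genes. Hoxb5 (0.86 ± 0.30, adjusted p = 0.065; without the anterior library 1.22 (adjusted p = 0.015)), Hoxc6 (-1.16 ± 0.46, adjusted p = 0.092) and Hoxb3 (0.40 ± 0.32, adjusted p = 0.4) did not pass. Of the Npy-low Hoxb5 UMIs, 1 mixed neuron held 50 of 104, and 2 posterior neurons held 71 and 38 of 220. Without the library block 1 call was left, Hoxc4. DESeq2 called 6 (16.6% of genes), with Hoxb6 in place of Hoxd4, and the unfiltered fit 9 (22.6%). HoxB genes made up 57.9%, 39.0% and 41.1% of Hox UMIs in Npy-low and 33.6%, 28.8% and 22.8% in Npy-high neurons.

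Glial RNA was slightly higher in Npy-low neurons of each library (summed glia markers 4.81, 2.91 and 2.84 against 4.37, 2.31 and 1.81). Without neurons carrying glial RNA, Hoxb4 gave 1.20 (adjusted p = 0.039). Posterior Npy-low neurons also had more fibroblast (1.49 against 0.329) and macrophage marker UMIs (1.15 against 0.0254). Without neurons carrying fibroblast RNA Hoxb4 gave 1.18 (adjusted p = 0.00077), and the part of macrophage RNA was not tested.

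**Figure D3:**
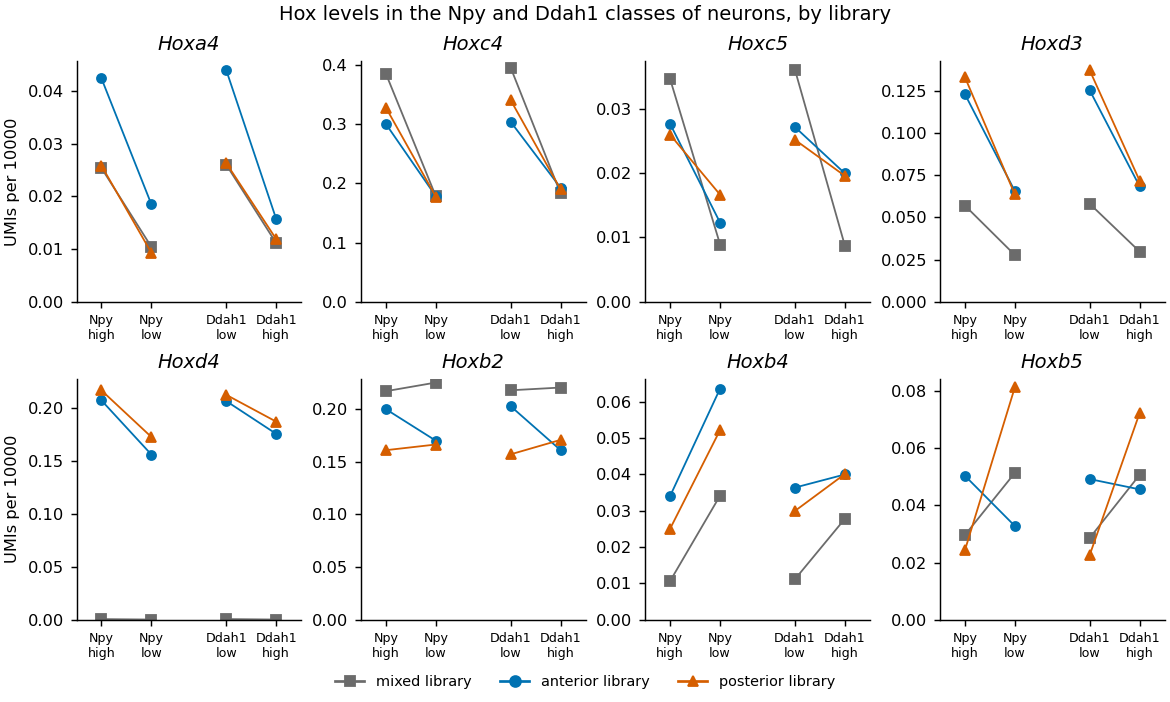
UMIs per 10000 of Hox genes in neurons divided by Npy and by Ddah1, by library. Hoxa4, Hoxc4, Hoxc5 and Hoxd3 are lower in Npy-low neurons of every library, and Hoxb4 is higher (posterior 0.0522 against 0.0250).

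In the Ddah1 split 5 Hox genes were lower in Ddah1-high neurons and 2 were higher. Hoxc4 was at 0.183, 0.193 and 0.190 in Ddah1-high and 0.396, 0.304 and 0.341 in Ddah1-low neurons (-0.91 ± 0.08, adjusted p = 4.7e-06). Hoxa4 (-1.25 ± 0.18, adjusted p = 0.00024), Hoxd3 (-0.93 ± 0.10, adjusted p = 2.3e-05), Hoxc5 (-0.97 ± 0.28, adjusted p = 0.026) and Hoxa5 (-2.45 ± 0.57, adjusted p = 0.0079, from 2, 0 and 3 Ddah1-high UMIs) were lower. Hoxb4, at 0.0277, 0.0399 and 0.0401 against 0.0111, 0.0363 and 0.0299, was higher (0.64 ± 0.20, adjusted p = 0.037). Hoxb5 was higher in the test (0.92 ± 0.23, adjusted p = 0.014) but not in the anterior library, at 0.0507, 0.0456 and 0.0724 against 0.0286, 0.0493 and 0.0226. Hoxa5 was not tested in the Npy split, where its UMIs were too few. Posterior Ddah1-low neurons had more fibroblast (1.16 against 0.105) and macrophage marker UMIs (0.625 against 0.0899), and without neurons carrying fibroblast RNA Hoxa5 gave -1.92 (adjusted p = 0.025).

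Several of these calls depended on the settings. Without neurons carrying glial RNA Hoxb5 gave 0.75 (adjusted p = 0.085), and Hoxa5 had too few UMIs to be tested, as it did without the 3% highest doublet scores and at a Ddah1 limit of 2. At a Ddah1 limit of 0.5 Hoxa5 gave -1.56 (adjusted p = 0.068) and Hoxb4 0.51 (adjusted p = 0.17), and with a neuron minimum of 5000 Hoxb4 gave 0.56 (adjusted p = 0.088). Without the mixed library Hoxb4 gave 0.34 (adjusted p = 0.28) and Hoxc5 -0.37 (adjusted p = 0.36), and without the posterior library Hoxb5 gave 0.48 (adjusted p = 0.085) and Hoxa5 had too few UMIs to be tested. Here 7 of 11 tested genes passed, where 25.3% of 13976 genes did, 5 lower (12.8% of genes) and 2 higher (12.5%). Without the library block 1 passed, Hoxc4. DESeq2 called 3 (12.4% of genes), Hoxa4, Hoxc4 and Hoxd3, and the unfiltered fit 9 (18.4%).

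Nos1 encodes neuronal nitric oxide synthase. Nos1-high neurons (at least 1 UMI per 10000) numbered 55, 84 and 61, with 35, 22 and 34 neurons between 0.5 and 2. Among them Hoxb5 was at 0.126, 0.243 and 0.300, against 0.0313, 0.0382 and 0.0334 in Nos1-low neurons. Every Nos1-high value was above every Nos1-low value (2.63 ± 0.22, adjusted p = 1.4e-06), and the estimate was 2.33 to 2.90 without each library in turn. The posterior value rests on few cells: 6 neurons held its 91 UMIs, and 1 of them held 71. That neuron was the only posterior neuron both Nos1-high and Npy-low, and it was Ddah1-high too. Its UMIs thus also entered the Hoxb5 levels of the Npy and Ddah1 splits, and its part in them was not tested. Without the posterior library Hoxb5 gave 2.33 (adjusted p = 2e-09). It was the 1 call among 10 tested Hox genes, where 12.1% of 13271 genes passed (5.93% higher, 6.16% lower). Hoxb2 (0.34 ± 0.12, adjusted p = 0.094) and Hoxb4 (0.93 ± 0.34, adjusted p = 0.093) did not pass. Without neurons carrying glial RNA Hoxb4 passed, at 1.78 (adjusted p = 0.0052). Without the anterior library 4 passed, with Hoxb4, Hoxb6 and Hoxb7 added, and the share of all genes passing there is not given. DESeq2 called 3 (8.19% of genes), with Hoxb6 and Hoxb7, and the unfiltered fit 4 (9.53%).

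**Figure D4:**
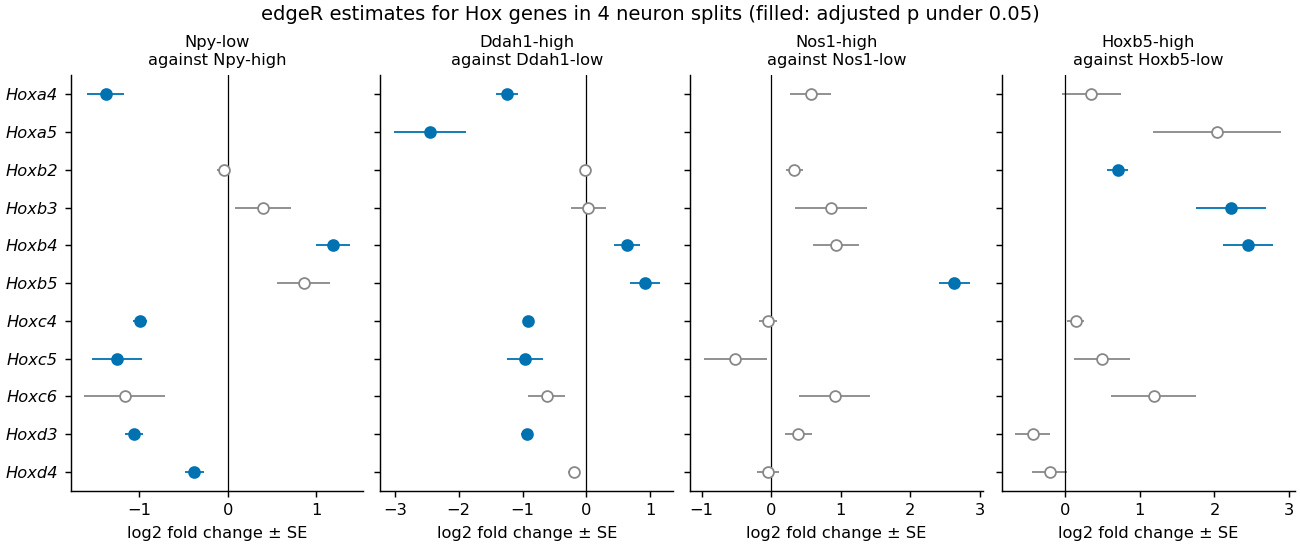
edgeR log2 fold changes with standard errors of Hox genes in 4 splits of the neurons, with Hoxb5 left out where it set the split. Hoxa4, Hoxc4, Hoxc5 and Hoxd3 lie below 0 in the Npy and Ddah1 panels, and Hoxb5 lies highest in the Nos1 panel, at 2.63.

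Hoxb5, known for its part in neural crest and enteric nervous system development, was unlike Hoxc4 in where its RNA lay. Only 5.38%, 6.85% and 4.50% of neurons held a Hoxb5 UMI, while 1 neuron held up to 50, 10 and 71. The 5% of neurons with most of it carried 98.2%, 90.5% and 100% of its UMIs, against 16.8%, 21.7% and 20.7% for Hoxc4. This share depends on how many neurons hold a UMI, and the posterior 100% follows from the 4.50% there. For Hoxb4, nearer to Hoxb5 in level with 171, 191 and 275 UMIs, it was 82.5%, 72.8% and 69.8%. The Fano factor (variance over mean of the UMIs per neuron) was 10.6, 4.46 and 23.5 for Hoxb5. It was 2.13, 2.10 and 2.77 for Hoxb4 and 1.64, 1.5 and 1.92 for Hoxc4.

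Neurons with at least 0.5 Hoxb5 UMIs per 10000, called Hoxb5-high, numbered 47, 45 and 33, and 67, 46 and 39 neurons lay between 0.25 and 1. They made up 10.9%, 15.5% and 9.84% of Nos1-high and 2.14%, 2.60% and 1.95% of Nos1-low neurons. Among neurons with at least 1 UMI per 10000 of Vip, a vasodilator neuropeptide, they made up 12.2%, 15.8% and 12.2%. Most Hoxb5-high neurons were still Nos1-low, 87.2%, 71.1% and 81.8% of them.

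**Figure D5:**
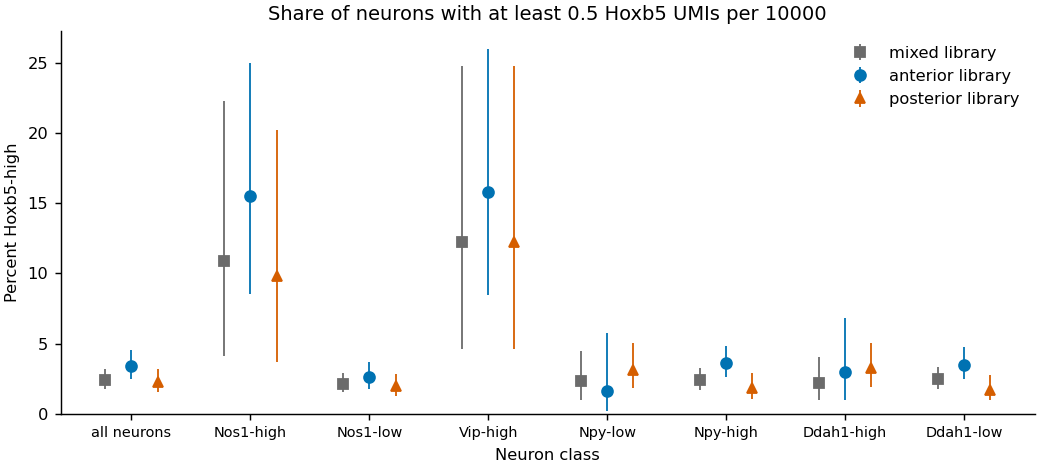
Percent of neurons of each class that were Hoxb5-high, 1 symbol per library with its exact 95% binomial interval, which covers counting error only. Nos1-high and Vip-high neurons lie between 9.84 and 15.8%, and all neurons between 2.29 and 3.42%.

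Hoxb5-high neurons had more RNA of neighbouring HoxB genes. Hoxb4 was at 0.129, 0.0707 and 0.188 in Hoxb5-high and 0.0121, 0.0356 and 0.0302 in Hoxb5-low neurons (2.44 ± 0.33, adjusted p = 0.00011). Hoxb3 was at 0.0417, 0.0218 and 0.0545 against 0.00784, 0.00879 and 0.00854 (2.22 ± 0.47, adjusted p = 0.012). Hoxb2 was at 0.314, 0.288 and 0.337 against 0.216, 0.194 and 0.158 (0.71 ± 0.14, adjusted p = 0.006). For each of these genes the classes did not overlap, with Hoxb4 from 34, 13 and 38 UMIs in Hoxb5-high neurons. Here and in the splits above, the share of all genes without overlap is not given. The lack of overlap is thus no result about Hox genes as a group. Hoxb6 had 12, 0 and 24 UMIs in Hoxb5-high and 3, 0 and 1 in Hoxb5-low neurons and did not reach the count filter.

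Hoxb5 set the split and is left out of the count. Of the 10 other Hox genes tested 3 passed, all higher, where 1.7% of 13450 genes did (1.25% higher, 0.454% lower). Hoxc4 (0.14 ± 0.12, adjusted p = 0.84), Hoxd3 (-0.43 ± 0.23, adjusted p = 0.63) and Hoxd4 (-0.20 ± 0.24, adjusted p = 0.9) did not pass. DESeq2 (0.983% of genes) and the unfiltered fit (2.41%) each called Hoxb6 as well. Without the posterior library Hoxb4 stayed, and Hoxb2 gave 0.54 (adjusted p = 0.077) and Hoxb3 1.99 (adjusted p = 0.063). Without the mixed library Hoxb3 gave 2.10 (adjusted p = 0.18), and without the library block only Hoxb5 passed. Posterior Hoxb5-high neurons had summed fibroblast markers of 4.95 against 0.610, and of epithelial markers 1.15 against 0.131. The part of epithelial RNA was not tested. Without neurons carrying fibroblast RNA Hoxb4 gave 2.47 (adjusted p = 2.4e-05).

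Over all genes 229 passed in this split, 168 higher and 61 lower, and 200 of them moved the same way in all 3 libraries. Vip was at 1.14, 7.46 and 8.61 against 0.231, 0.626 and 0.649 (3.27 ± 0.16, adjusted p = 3.2e-11). Only 12.8%, 26.7% and 18.2% of Hoxb5-high neurons were Vip-high. The others were below the limit for Vip-high, so these class levels do not describe most Hoxb5-high neurons. Nos1 was at 0.939, 4.63 and 2.24 against 0.122, 0.571 and 0.369 (2.84 ± 0.08, adjusted p = 1.1e-15). The same neurons enter the Nos1 split, where Hoxb5 was already higher, so the Nos1 difference is no separate result. Etv1, an ETS-family transcription factor (3.77 ± 0.38, adjusted p = 2.5e-06), and Slc18a2, the vesicular monoamine transporter (3.21 ± 0.32, adjusted p = 2.5e-06), were higher too. Th, the rate-limiting enzyme of catecholamine synthesis, was lower, at 0.186, 0.152 and 0.188 against 0.717, 0.872 and 0.834 (-2.19 ± 0.12, adjusted p = 1.6e-10), and so was Gata2, a transcription factor of sympathetic neurons (-0.99 ± 0.21, adjusted p = 0.011).

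Anterior and posterior neurons had close levels of the highest Hox genes. The ratio of anterior to posterior level was 1.00 (0.927 to 1.08) for Hoxd4, 1.04 (0.975 to 1.11) for Hoxc4, 1.07 (0.965 to 1.19) for Hoxd3 and 1.21 (1.12 to 1.32) for Hoxb2, with 95% intervals from counting error. Of 18 Hox genes with at least 20 UMIs in the pair, 1 was past 1.5-fold with 0.01 per 10000 added to each level, where 3.63% of 15603 genes were. Higher in the anterior library, as this gene was, stood 0.218% of genes, and 3.42% stood higher in the posterior. The gene was Hoxa4, with 208 and 163 UMIs and a ratio of 1.98 (1.61 to 2.45). The median Hox log2 ratio was 0.06 against -0.09 over all genes. Hoxb6 had 0 anterior and 25 posterior UMIs, and was not past 1.5-fold with the addition. Each side is 1 library, so these intervals carry no test of region.

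Because Npy classes take different shares of the libraries, the ratios were repeated within them. In Npy-high neurons 1 of 14 Hox genes was past 1.5-fold, Hoxb5, where 1.03% of genes were (0.238% anterior, 0.79% posterior). In Npy-low neurons 2 of 10 were, Hoxb5 and Hoxb6, where 10.5% of genes were (1.65% anterior, 8.81% posterior). Hoxa4 was past 1.5-fold in neither class with the addition. Its ratio without the addition was 1.64 (1.31 to 2.05) in Npy-high and 1.99 (0.819 to 4.42) in Npy-low neurons, the latter from 9 and 25 UMIs. Hoxb5 went in opposite directions, at 2.07 (1.67 to 2.59) in Npy-high and 0.403 (0.226 to 0.669) in Npy-low neurons. In Npy-low neurons 6 of 123 anterior and 27 of 510 posterior cells held a Hoxb5 UMI, and 2 posterior neurons held 71 and 38 of the 220 posterior UMIs, which the Poisson interval does not cover.

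Among 9 TALE cofactors, 6 were tested between neurons and glia, where 2 were higher in neurons and 1 lower, where 67% of all genes passed (34.5% higher, 32.5% lower), with a median of 0.05 against 0.07 for all genes. Meis1 was at 0.561, 0.609 and 0.708 in neurons and 0.0936, 0.0904 and 0.146 in glia (2.63 ± 0.28, adjusted p = 3e-06), and Meis3 was higher too (1.95 ± 0.37, adjusted p = 0.00043). Against fibroblasts 3 of 6 tested cofactors were higher in neurons (34.5% of all genes) and 2 lower (32.1%). The median was 0.24 against 0.06 for all genes. Meis3 (1.66 ± 0.34, adjusted p = 0.00077) and Pbx2 (1.17 ± 0.30, adjusted p = 0.0035) were among the higher. Meis2 was the lowest, at 1.28, 0.708 and 0.730 in fibroblasts and 0.00258, 0.000771 and 0.00782 in neurons (-7.99 ± 0.49, adjusted p = 1.3e-08). In Npy-low neurons 4 of 8 tested cofactors passed, 2 in each direction, where 26.5% of all genes did. Pbx3 was higher (0.80 ± 0.16, adjusted p = 0.0043), and Pknox1 (-0.49 ± 0.11, adjusted p = 0.011) and Meis1 (-0.15 ± 0.05, adjusted p = 0.049) were lower. Pbx3 and Pknox1 also passed in the Ddah1 split, at 0.54 ± 0.14 and -0.47 ± 0.08. Meis1 did not pass in the Nos1 (0.18 ± 0.08, adjusted p = 0.19) or Hoxb5 split (-0.17 ± 0.10, adjusted p = 0.66).

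Of 18 retinoic acid pathway genes, 11 were tested between neurons and glia, where 8 were lower in neurons (32.5% of all genes) and 1 higher (34.5%), with a median of -2.82 against 0.07 for all genes. The receptor gene Rxrg was at 0.593, 0.791 and 0.657 in glia and 0.0141, 0.0120 and 0.0134 in neurons (-5.52 ± 0.32, adjusted p = 9.8e-09), while Rxrb was higher in neurons (0.82 ± 0.27, adjusted p = 0.018). Aldh1a1, an enzyme that makes retinoic acid, was lower in neurons than in glia (-5.69 ± 0.78, adjusted p = 2.8e-05) and fibroblasts (-8.70 ± 0.49, adjusted p = 5.8e-09). Crabp1, a cytoplasmic retinoic acid-binding protein, was lower in Npy-low (-1.40 ± 0.24, adjusted p = 0.0019) and higher in Nos1-high neurons (1.75 ± 0.32, adjusted p = 0.0018). In the Nos1 split 2 of 11 tested members passed, both higher, where 5.93% of all genes were. In Npy-low neurons 3 of 11 were higher (12.5% of all genes) and 2 lower (13.9%). The highest was Dhrs3, a retinal reductase (1.79 ± 0.49, adjusted p = 0.023), which was at 0.920, 0.734 and 0.740 in fibroblasts and 0.00172, 0.00173 and 0.00956 in all neurons. Posterior Npy-low neurons had more fibroblast marker UMIs, as given above, and their part in the Dhrs3 difference was not tested. Against fibroblasts 9 of 11 were lower in neurons (32.1% of all genes) and 1 higher (34.5%), with a median of -3.88 against 0.06 for all genes. Aldh1a2, the main embryonic source of retinoic acid, had 18, 10 and 27 UMIs in fibroblasts and 0 in the glia of every library.

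Of 20 chromatin regulators of Hox clusters, 16 were tested between neurons and glia, where 9 were lower in neurons (32.5% of all genes), with a median of -0.89 against 0.07 for all genes. Ezh2, the Polycomb methyltransferase, was at 0.0221, 0.0181 and 0.0282 in neurons and 0.187, 0.271 and 0.146 in glia (-2.93 ± 0.42, adjusted p = 4.3e-05), and the demethylase gene Kdm6b was lower as well (-2.19 ± 0.21, adjusted p = 1.2e-06). In the Npy split 1 of 20 passed, Cbx7 (0.29 ± 0.08, adjusted p = 0.031), where 26.5% of all genes did. Against fibroblasts 8 of 16 were lower in neurons (32.1% of all genes) and 1 was higher (34.5%), Suz12 (0.54 ± 0.20, adjusted p = 0.032).

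Of 15 upstream and axial factors 6 were tested, and 4 were lower (32.5% of all genes) and 1 higher (34.5%) in neurons than in glia, with Egr2 the lowest (-6.59 ± 0.39, adjusted p = 1.1e-08) and a median of -2.04. Gdf11, a signal that shifts axial identity backwards in embryos, was higher in Npy-low neurons (2.08 ± 0.15, adjusted p = 6.1e-06), and Tshz2 was lower there (-0.54 ± 0.07, adjusted p = 0.00042) and higher in Nos1-high neurons (0.84 ± 0.11, adjusted p = 0.0001).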

How the data were processed

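The authors deposited raw UMI counts per gene and cell barcode in 10x matrices, made with Cell Ranger 3.1.0 for the mixed and 6.1.2 for the other libraries per the file headers. The submitters' processing notes name Cell Ranger 7.1.0, Seurat 4.4.2 and mm10. How reads were filtered is not given in the sources used here. Barcodes with at least 1000 UMIs, 500 genes and at most 20% mitochondrial UMIs were kept (2438 mixed, 2029 anterior, 2624 posterior, of 2829, 2256 and 3276), from libraries of 119825307, 55329380 and 86391988 UMIs. Scrublet in scanpy 1.11.5 called 10, 5 and 7 doublets, under 0.5% of barcodes; none were removed and doublets may remain. An alternative removed the 3% of barcodes with the highest scores. Glia, fibroblasts and macrophages needed at least 3 of their markers and not all 3 neuron markers.

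Counts were summed per library and class and tested with edgeR 4.0.16 (quasi-likelihood, TMM, filterByExpr, library as block, Benjamini-Hochberg over all genes; calls at adjusted p under 0.05) in R 4.3.3, with DESeq2 1.42.0 as an alternative. The library block pairs classes from the same mice. Standard errors of edgeR estimates were derived as the absolute log2 fold change over the square root of the test's F statistic. The 3 libraries are the replicates, and they also differ in region and age. With the block, p-values rest on how much the class difference varied between libraries, not on the spread of levels between them. On simulated data the test recovered 69% of 2-fold and 97% of 4-fold changes between neurons and glia (8709 genes), and 98% of 2-fold changes between Npy classes (14182 genes). Only genes averaging over 0.1 UMIs per 10000 were changed, with 1 fixed spread for all genes. Both classes of a library were given the same library effect. Most Hox genes tested in the neuron splits lay under that level, so this recovery does not apply to them. Intervals are exact, at 95%, and cover counting error only; a level of 0 was read against a floor of 3 UMIs. The members and lists were chosen with earlier results of these data known. Hox genes were to be named in full where they reached 0.1 UMIs per 10000 with 3 UMIs in a class; Hoxa3, Hoxa4, Hoxb5, Hoxb6, Hoxc5 and Hoxc6 were named after their values were seen, and so were the Hoxb5 split and the exclusion of neurons with fibroblast RNA. Hox genes below that level are named as well wherever a count or a list of the others called for it. Of each other list, the 2 highest and 2 lowest passing genes per comparison could be named, or the 2 with the highest neuron level where none passed. The genes named in the Hoxb5 split were chosen after their values were seen. Some members of these lists are not reported by name here.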

Additional observations from a re-analysis of the deposited data

Results flagged for a closer look

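Several Hox genes moved in opposite directions between the anterior and posterior libraries under the same split of neurons. Each side is 1 library, so these differences were not tested. Values are log2 ratios with 0.01 UMIs per 10000 added, anterior first. Hoxb5 in Npy-low over Npy-high neurons gave -0.50 and 1.42, and in Ddah1-high over Ddah1-low neurons -0.091 and 1.34. In the posterior Npy-low and Ddah1-high classes, 2 neurons held 71 and 38 of the 220 and 244 Hoxb5 UMIs. Hoxb2 gave -0.22 and 0.045 in the Npy split and -0.32 and 0.11 in the Ddah1 split. In Nos1-high over Nos1-low neurons Hoxc5 gave -1.45 and 0.41, the first from 1 UMI among Nos1-high neurons, and Hoxc4 gave -0.14 and 0.35.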

How the results depend on the processing

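Counts of called Hox genes moved with these settings. DESeq2 called 5 between neurons and glia, 7 between neurons and fibroblasts, 2 between glia and fibroblasts, 3 in the Ddah1 and 3 in the Nos1 split. Without a filter on low counts the first 3 comparisons gave 7, 9 and 3, and the Nos1 split 4. Without the library block (a replicate block, since a library supplies both classes) the Npy, Ddah1 and Hoxb5 splits each kept 1, which in the last is Hoxb5 itself, counted in that split here. With neurons carrying glial RNA left out the Nos1 split gave 2. Leaving out each library gave 2 to 4 calls between neurons and glia and between neurons and fibroblasts, 1 to 4 in the Nos1 split, 2 to 6 in the Hoxb5 split, and 2 to 4 expressed genes. The share of all genes called is not given for fits without the library block, a library or neurons carrying glial RNA. Their Hox counts, here and above, therefore cannot be read against all genes. With a limit of 0.2 per 10000, 1 gene counted as expressed. Between anterior and posterior neurons 0 genes passed 1.5-fold with 0.1 added and 2 within Npy-low neurons. Thinned to 5000 UMIs, 30.9%, 38.6% and 33.9% of neurons held a Hox UMI, and thinned to 2000, 14.6%, 16.8% and 16.6%. Signs changed only for genes not called. Hoxb2 between neurons and glia gave -0.13 without TMM factors, -0.25 with at most 1 neuron marker in glia, and -0.094 to 0.26 leaving out each library. In the Ddah1 split Hoxb3 gave -0.056 with DESeq2, -0.012 without the block, -0.11 with a neuron minimum of 5000, -0.065 without the 3% highest doublet scores, -0.079 at a Ddah1 limit of 0.5, and -0.24 to 0.18 leaving out each library. Hoxb2 there gave 0.011 at that limit and -0.11 to 0.064 leaving out each library. In the Nos1 split Hoxd4 gave 0.017 with DESeq2 and Hoxc4 -0.26 to 0.10 leaving out each library. In the Hoxb5 split leaving out each library gave -0.27 to 0.83 for Hoxc5, -0.00047 to 0.19 for Hoxc4 and -0.86 to 0.27 for Hoxd4, and a Hoxb5 limit of 1 gave 0.22 for Hoxd4 and -0.28 for Hoxc6. The causes were not tested. Of the values for single genes, 637 kept direction and side of the threshold, 32 lost and 12 gained a call, and 18 changed sign. Glia and fibroblasts had few UMIs, so most Hox genes could not be tested there, and a gene without a UMI in them may be present below the floor.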
